A study of Mus musculus with 18 samples.

Results

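The adenylyl cyclases, the enzymes that make cyclic AMP (cAMP) from ATP, were followed at the RNA level in granule cells of the ventral dentate gyrus. The 8 genes Adcy1, Adcy2, Adcy3, Adcy5, Adcy6, Adcy7, Adcy8 and Adcy9 were taken by symbol from the 34620 genes of the count tables, and all 8 were among the 17421 genes that passed the filter on low counts. RNA-Seq of the microdissected granule cell layer gave 6 libraries, 2 from each of 3 groups of adult male Swiss Webster mice aged 8 to 12 weeks. WT males came from a wild-type lineage bred in parallel. F1 males were themselves genetically wild-type but had a mother labelled 5HT1A-/+ (H), that is, heterozygous for the serotonin 1A receptor gene, and by the study's methods a heterozygous father too. F2 males were born to F1 females mated with WT males, so that their mother was wild-type and their maternal grandmother carried the 5HT1A-/+ genotype, as by those methods did their maternal grandfather. No library came from an animal that lacked the receptor gene, and the receptor transcript Htr1a had 62.2 and 55.7 counts scaled to library size (CPM) in WT, 49.3 and 55.1 in F1, and 68.6 and 66.6 in F2. The strain is outbred, the layer was cut by hand from frozen sections, and how many animals made up a library is not stated, so the p-values describe the spread between libraries.

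Adenylyl cyclases integrate signals at the plasma membrane. Gs-coupled receptors stimulate them, Gi-coupled receptors, among them the 5-HT1A receptor, inhibit several of them, and the cAMP they make activates protein kinase A (PKA) and other effectors. The isoforms differ in their second input. Adcy1, Adcy3 and Adcy8 are stimulated by calcium and calmodulin, and Adcy1 and Adcy8 are known for their role in synaptic plasticity in the hippocampus. Adcy5 and Adcy6 are inhibited by calcium, Adcy2 and Adcy7 are stimulated by G protein βγ subunits together with Gs, and Adcy9 responds poorly to forskolin.

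The libraries held between 26358165 and 33727936 reads counted on genes. Levels are given as CPM after TMM normalization, which scales each library by a trimmed mean of gene ratios. Groups were compared with edgeR's exact test, and a gene was called at an adjusted p under 0.01 (Benjamini-Hochberg over all tested genes). In F1 against WT 12.3% of all tested genes were called, 3.77% higher and 8.54% lower. In F2 against WT 12% were called, 3.86% higher and 8.1% lower, and in F2 against F1 0.74%. Both comparisons with WT use the same 2 WT libraries. Granule cell markers were well expressed, with a summed level of the 6 marker genes of 961 and 1005 CPM in WT, 841 and 1035 in F1, and 1237 and 1130 in F2. No list of markers of other cell types was at 0. The 6 astrocyte markers summed to 1958 and 2226 CPM in WT, 2411 and 3031 in F1, and 3378 and 2783 in F2, and the 8 oligodendrocyte markers to 1086 and 1979, 2946 and 2222, and 1520 and 2872. The 7 microglial markers summed to between 118 and 119 CPM in WT and between 141 and 183 in F1 and F2. The 3 markers of oligodendrocyte precursors summed to 45.8 and 52.6 CPM in WT and to between 74.7 and 84.5 in F1 and F2. The 5 endothelial markers summed to 70 and 76.9 CPM in WT, 77.7 and 96 in F1, and 102 and 99.5 in F2. For the 8 interneuron markers the sums were 650 and 719, 876 and 633, and 726 and 809. For the 4 choroid plexus markers they were 15.4 and 14.5, 14.5 and 17.3, and 19.3 and 19.2. The 6 markers of CA fields and mossy cells summed to 312 and 348 CPM in WT, 345 and 278 in F1, and 287 and 303 in F2. Of the 5 of these that were tested, Pvrl3 and Bok were called lower in F2 than in F1 (log2 fold change -1.15 ± 0.15 and -0.75 ± 0.16). The other 3 were not called, with log2 fold changes above 0 (Fibcd1 0.53, Calb2 0.32 and Spink8 0.05). The part of these shifts in the results below was not tested, and in bulk tissue fewer cells of a type and less RNA per cell cannot be told apart.

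The adenylyl cyclases changed in both directions, and the genes called in F1 and in F2 were in part different. In F1, 2 of the 8 genes were called, Adcy6 and Adcy8, both lower than WT. In F2, 3 were called: Adcy6 was again lower, while Adcy1 and Adcy5 were higher. By the test of the difference itself, Adcy8 was the member called between the generations, being low in F1 and at the WT level in F2. The share of members called was 25% in F1 and 37.5% in F2, beside 12.3% and 12% of all tested genes, which for 8 genes is a difference of 1 or 2 genes. The median log2 fold change of the 8 was 0.26 in F1 and 0.39 in F2, against 0.01 and 0 over all tested genes. The ranges of the 2 groups did not overlap for 5 of the 8 members in F1 against WT and for 6 in F2 against WT. This is near the background, since 60.4% and 63% of all tested genes did not overlap in these comparisons.

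**Figure D1:**
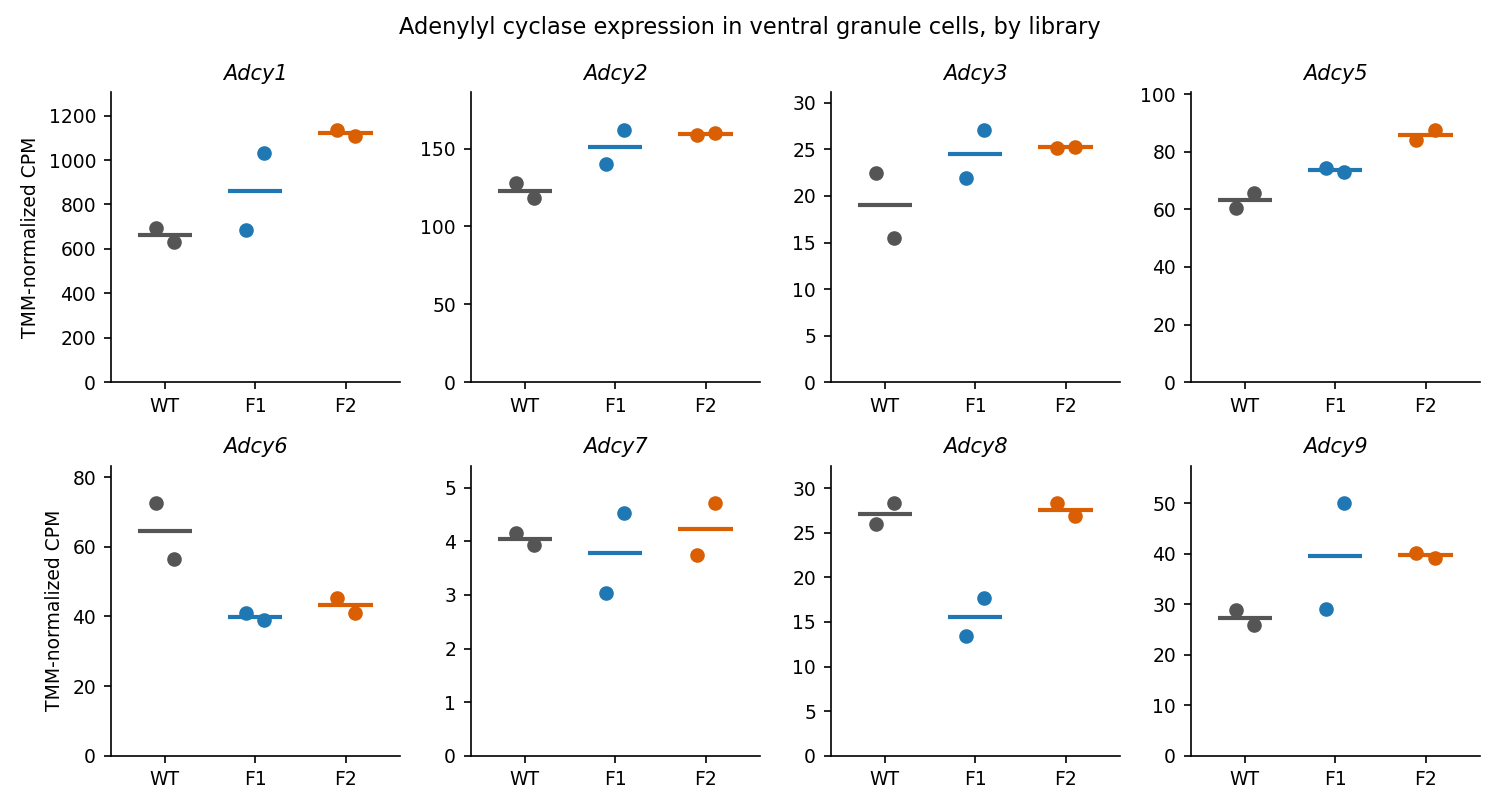
TMM-normalized level in counts scaled to library size (CPM, linear axis from 0) of each of the 8 adenylyl cyclases in WT, F1 and F2. Each point is 1 library and each bar the mean of 2. Adcy6 lies lower in all F1 and F2 libraries than in WT, Adcy8 is low in the F1 libraries (13.4 and 17.7 CPM), and Adcy1 is above 1100 CPM in both F2 libraries.

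Of the calcium-stimulated isoforms, Adcy1 rose in F2 and Adcy8 fell in F1. Adcy1 (mm9 chr11:6963492-7078509, plus strand) encodes a cyclase that couples calcium entry to cAMP in neurons. Its level was 696 and 631 CPM in WT, 684 and 1033 in F1, and 1136 and 1109 in F2. Both F2 libraries lay above all WT and F1 libraries, whereas the F1 libraries were split, one within the WT range and the other well above it. The F2 increase was 1.69-fold (log2 fold change 0.76 ± 0.16 SE, edgeR exact test, adjusted p = 0.000104). In F1 the log2 fold change of 0.37 ± 0.16 was not called (edgeR adjusted p = 0.0902), and the difference between F2 and F1 of 0.39 ± 0.16 was not called either (edgeR adjusted p = 0.377). The F1 value rested on 1 library: it was 0.64 without F1 replicate 1 (edgeR adjusted p = 8.08e-05) and 0.05 without F1 replicate 2 (edgeR adjusted p = 0.889). Without F1 replicate 2, Adcy1 was also called between F2 and F1 (log2 fold change 0.72, edgeR adjusted p = 0.000178). The F2 increase missed the threshold without WT replicate 2 (0.69, edgeR adjusted p = 0.013) and by the quasi-likelihood test (edgeR adjusted p = 0.0107). The summed level of the granule cell markers was likewise at its highest in the F2 libraries, as were Prox1 and Calb1, whereas Dsp and Tdo2 were at their highest in F1 replicate 2 (115 and 23.3 CPM). In F2 replicate 2, C1ql2 (121 CPM) lay below both WT libraries (135 and 139), and Rfx3 (204 CPM) lay below WT replicate 2 (211). Between the F1 libraries the marker sum stood at 841 CPM where Adcy1 was 684 and at 1035 where Adcy1 was 1033. Between the WT libraries the order was the reverse, with a sum of 961 where Adcy1 was 696 and of 1005 where Adcy1 was 631. The part of granule cell content in the Adcy1 result was not tested.

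Adcy8 (mm9 chr15:64530604-64753858, minus strand) is the other isoform activated directly by calcium and calmodulin. WT libraries held 26 and 28.3 CPM, F1 libraries 13.4 and 17.7, and F2 libraries 28.3 and 26.9. Both F1 values lay below all others, and those of WT and F2 overlapped. Relative to WT, Adcy8 fell by 42.7% in F1 (log2 fold change -0.80 ± 0.16, edgeR exact test, adjusted p = 2.26e-05). In F2 the log2 fold change was 0.02, with a 95% interval of -0.29 to 0.34. The difference between the generations, tested directly, was 0.83 ± 0.16 on the log2 scale, 1.77-fold more in F2 than in F1 (edgeR exact test, adjusted p = 0.000145). The F1 decrease was called under all 17 alternatives tried. The difference between generations was not called without F1 replicate 1 (0.64, edgeR adjusted p = 0.0241), without F2 replicate 1 (0.79, edgeR adjusted p = 0.0468) or by the quasi-likelihood test (edgeR adjusted p = 0.0455). Between the same generations the CA field and mossy cell markers Pvrl3 (41.7 and 41 CPM in WT, 59.4 and 58.8 in F1, 22.1 and 31.2 in F2) and Bok (55.2 and 44.5, 72.5 and 76.5, 37.2 and 51.2) moved the other way. The other 3 tested markers of that list moved in the same direction as Adcy8 (log2 fold change 0.53 for Fibcd1, 0.32 for Calb2 and 0.05 for Spink8) and were not called. The part of these markers in the Adcy8 result was not tested.

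Adcy3 (mm9 chr12:4133103-4213525, plus strand), the cyclase known from olfactory neurons and primary cilia, had 22.5 and 15.5 CPM in WT, 21.9 and 27.1 in F1, and 25.2 and 25.3 in F2. The WT libraries differed more between themselves than either generation did from the higher of them. Neither log2 fold change was called, 0.37 ± 0.19 in F1 (edgeR adjusted p = 0.151) and 0.41 ± 0.19 in F2 (edgeR adjusted p = 0.104). In the GENCODE M1 annotation 1380 bases of Adcy3 exons, 22.1% of their length, lie within exons of Cenpo on the opposite strand. The kit does not mark strand, so reads from these bases cannot be assigned to either gene. None of the other 7 members shares exon bases with another gene.

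The calcium-inhibited isoforms moved in opposite directions. Adcy6 (mm9 chr15:98420425-98438064, minus strand), a broadly expressed cyclase that Gi also inhibits, was the member called in both generations. Its level was 72.5 and 56.6 CPM in WT, 41 and 38.9 in F1, and 45.4 and 41.1 in F2. All 4 F1 and F2 libraries lay below both WT libraries, and the WT libraries were the farthest apart. Adcy6 fell by 38.2% in F1 (log2 fold change -0.69 ± 0.14, edgeR exact test, adjusted p = 2.66e-05) and by 33% in F2 (-0.58 ± 0.14, edgeR exact test, adjusted p = 0.000713). Between F2 and F1 the difference was 0.11, with a 95% interval of -0.16 to 0.39. Both decreases depended on WT replicate 1, the higher of the WT values: without it they were -0.51 (edgeR adjusted p = 0.0145) and -0.39 (edgeR adjusted p = 0.0892). The F2 decrease was also not called without F2 replicate 1 (edgeR adjusted p = 0.0123), without F2 replicate 2 (edgeR adjusted p = 0.0545) or by the quasi-likelihood test (edgeR adjusted p = 0.0115). The share of reads left uncounted because they did not lie fully within annotated exons moved with the groups as well. It was 12.6% and 14.2% in WT, 9.84% and 9.18% in F1, and 10.2% and 11.6% in F2, of a total that includes alignments to several places. Its part in the decrease was not tested.

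Adcy5 (mm9 chr16:35154963-35305823, plus strand), the closest relative of Adcy6 and the main cyclase of the striatum, had 60.4 and 65.8 CPM in WT, 74.4 and 73.1 in F1, and 84 and 87.6 in F2. The 3 groups did not overlap and were ordered WT, F1, F2. The F2 increase was 1.36-fold (log2 fold change 0.44 ± 0.12, edgeR exact test, adjusted p = 0.00175). The F1 value of 0.23 ± 0.12 was not called (edgeR adjusted p = 0.159), nor was the difference of F2 from F1 (0.22 ± 0.12, edgeR adjusted p = 0.616). The F2 call was lost by the quasi-likelihood test (edgeR adjusted p = 0.0111). It was lost as well without WT replicate 1 (0.38, edgeR adjusted p = 0.0729), F2 replicate 1 (0.47, edgeR adjusted p = 0.029) or F2 replicate 2 (0.41, edgeR adjusted p = 0.0549).

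Neither isoform stimulated by βγ subunits was called. Adcy2 (mm9 chr13:68758920-69138419, minus strand), a cyclase of brain and muscle, had 128 and 118 CPM in WT, 140 and 162 in F1, and 159 and 160 in F2. Every F1 and F2 library exceeded both WT libraries. The log2 fold changes were 0.30 ± 0.12 in F1 (edgeR adjusted p = 0.0602) and 0.38 ± 0.12 in F2 (edgeR exact test, adjusted p = 0.0135). The F2 value passed 0.01 under 5 of the 17 alternatives, DESeq2 among them (adjusted p = 0.00953). Adcy7 (mm9 chr8:90796302-90853861, plus strand), better known from blood cells and microglia was scarce, with between 92 and 141 reads per library. Its level was 4.15 and 3.94 CPM in WT, 3.04 and 4.53 in F1, and 3.74 and 4.71 in F2, so that the groups overlapped. The 95% interval of its log2 fold change reached from -0.60 to 0.41 in F1, and for F2 from -0.44 to 0.57.

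Adcy9 (mm9 chr16:4287529-4420498, minus strand) had 28.8 and 25.9 CPM in WT, 29 and 50 in F1, and 40.2 and 39.2 in F2. As for Adcy1, the F1 libraries were split and the F2 libraries agreed closely. The log2 fold changes of 0.53 ± 0.20 in F1 (edgeR adjusted p = 0.0435) and 0.54 ± 0.20 in F2 (edgeR adjusted p = 0.0406) did not pass 0.01. Without F1 replicate 1 the F1 value was 0.87 (edgeR adjusted p = 4.55e-07), and without F1 replicate 2 it was 0.09 (edgeR adjusted p = 0.8). Leaving either F1 library out of the dispersion estimate also brought the F2 value past the threshold (edgeR adjusted p = 0.000382 and 0.000532). Of the 8 members, 6 were higher in F1 replicate 2 than in F1 replicate 1, Adcy5 and Adcy6 being the exceptions.

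**Figure D2:**
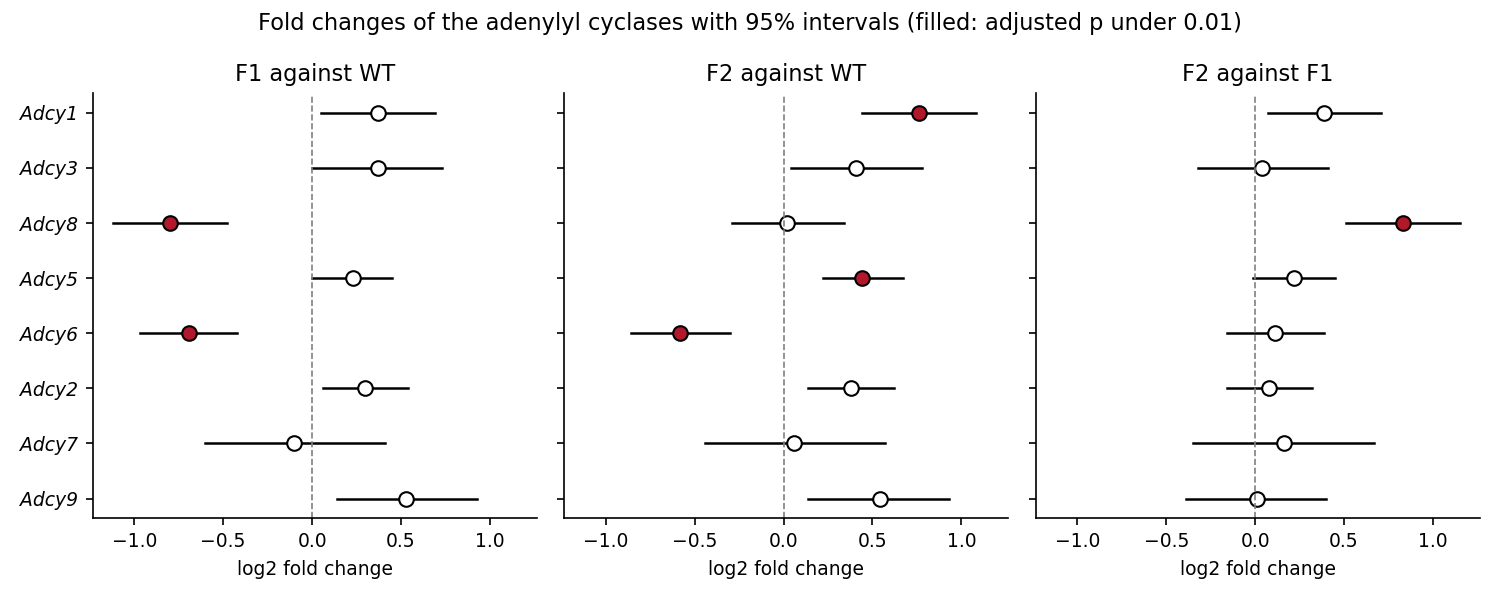
Log2 fold change (horizontal axis) of each adenylyl cyclase in F1 against WT, F2 against WT and F2 against F1, with its 95% interval as a line. Filled points passed an adjusted p of 0.01 in edgeR's exact test: Adcy8 and Adcy6 in F1, Adcy1, Adcy5 and Adcy6 in F2, and Adcy8 between F2 and F1.

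The promoter sequences of Adcy1 and Adcy5 are shown because these were the members called higher in F2, and that of Adcy9 because it holds a cAMP-related motif. Adcy9 also lay above WT in F2 (log2 fold change 0.54) but was not called. RefSeq (GRCm38.p6) gave windows from 250 bases before to 50 after a start for 6 of the 8 members, 9 windows in all, and Adcy6 and Adcy8 were not matched. They were searched on both strands for TGACGTCA, the palindromic cAMP response element bound by CREB, and for TGACG, its shorter core, which also lies within the full element. Of 32851 RefSeq promoters of this length, 1.79% hold the full element and 20.8% the core. No member window holds the full element, and the core was found in 1 of 3 Adcy7 windows and in Adcy9, at -24 from the start, where capitals mark it. G and C make up 74% of the Adcy1 window, 79% of that of Adcy5 and 78.3% of that of Adcy9, beside a median of 52.7% over all promoters. The windows lie at chr11:7063183-7063482 (plus strand), chr16:35154614-35154913 (plus strand) and chr16:4420449-4420748 (minus strand) of GRCm38.p6, and are written 5′ to 3′ along the gene.
Adcy1: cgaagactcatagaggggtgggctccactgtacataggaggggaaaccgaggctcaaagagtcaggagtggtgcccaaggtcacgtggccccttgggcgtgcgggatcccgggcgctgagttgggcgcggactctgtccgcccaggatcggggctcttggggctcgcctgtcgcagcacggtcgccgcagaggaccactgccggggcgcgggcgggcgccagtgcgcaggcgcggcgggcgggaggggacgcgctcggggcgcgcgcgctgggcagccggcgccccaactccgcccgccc
Adcy5: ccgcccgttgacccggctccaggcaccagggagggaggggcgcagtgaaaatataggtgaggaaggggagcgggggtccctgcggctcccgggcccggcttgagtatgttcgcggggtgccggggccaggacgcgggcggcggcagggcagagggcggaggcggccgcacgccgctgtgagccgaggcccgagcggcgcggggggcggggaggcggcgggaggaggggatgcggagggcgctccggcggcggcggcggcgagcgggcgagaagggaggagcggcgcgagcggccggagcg
Adcy9: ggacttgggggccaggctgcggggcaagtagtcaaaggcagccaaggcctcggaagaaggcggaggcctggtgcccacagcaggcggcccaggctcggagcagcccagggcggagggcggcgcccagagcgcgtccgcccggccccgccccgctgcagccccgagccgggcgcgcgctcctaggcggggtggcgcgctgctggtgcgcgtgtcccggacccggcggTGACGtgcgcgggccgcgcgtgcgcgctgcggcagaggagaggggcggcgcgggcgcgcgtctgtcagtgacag

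Levels of different genes were compared per kilobase of annotated exon. In WT, Adcy1 led with 53.0 ± 3.63 CPM per kilobase (SD, n = 2), followed by Adcy2 with 29.1 ± 1.70. Adcy6 with 10.7 ± 1.87 and Adcy5 with 9.0 ± 0.545 came next, their library ranges adjoining at 9.41 and 9.39. Adcy8 (5.39 ± 0.327) and Adcy9 (5.26 ± 0.398) overlapped, ahead of Adcy3 (3.04 ± 0.795) and Adcy7 (0.639 ± 0.0229). The order changed below the first 2 places. In F1 and in F2 Adcy5 followed Adcy2, then came Adcy9, and Adcy6 stood behind both. Adcy9 and Adcy6 overlapped in F1 (7.60 ± 2.86 and 6.64 ± 0.255 CPM per kilobase) and adjoined in F2 (7.64 ± 0.14 and 7.19 ± 0.5). Adcy8 fell behind Adcy3 in F1, at 3.09 ± 0.601 beside 3.92 ± 0.595, with overlapping ranges. The length used for Adcy3 includes 1380 bases shared with Cenpo, whose reads cannot be assigned. The level of Adcy3 per kilobase may therefore be understated in every group, and its place beside Adcy8 is uncertain. With the longest transcript as the length, Adcy8 and Adcy9 changed places in WT.

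The summed level of the 8 genes was 122 and 111 CPM per kilobase in WT, 118 and 156 in F1, and 166 and 164 in F2. Without Adcy1 the sums were 66 and 60.4, 62.9 and 73.5, and 75.3 and 75, so that most of the higher total in F2 was Adcy1. Adcy1 made up 45.7% and 45.5% of the sum in WT, 46.5% and 52.9% in F1, and 54.7% and 54.1% in F2. The share of Adcy6 was 9.92% and 8.49% in WT and between 4.14% and 5.8% in F1 and F2. Together the calcium-inhibited pair held 17% of the sum in both WT libraries, 14.8% and 10.8% in F1, and 11.8% in both F2 libraries. The calcium-stimulated isoforms held 52.9% and 52.8% in WT, 51.7% and 57.9% in F1, and 60.5% and 59.9% in F2. These shares are descriptions, and no test was made on them. The limit on the length of Adcy3 applies to the sums and shares as well.

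**Figure D3:**
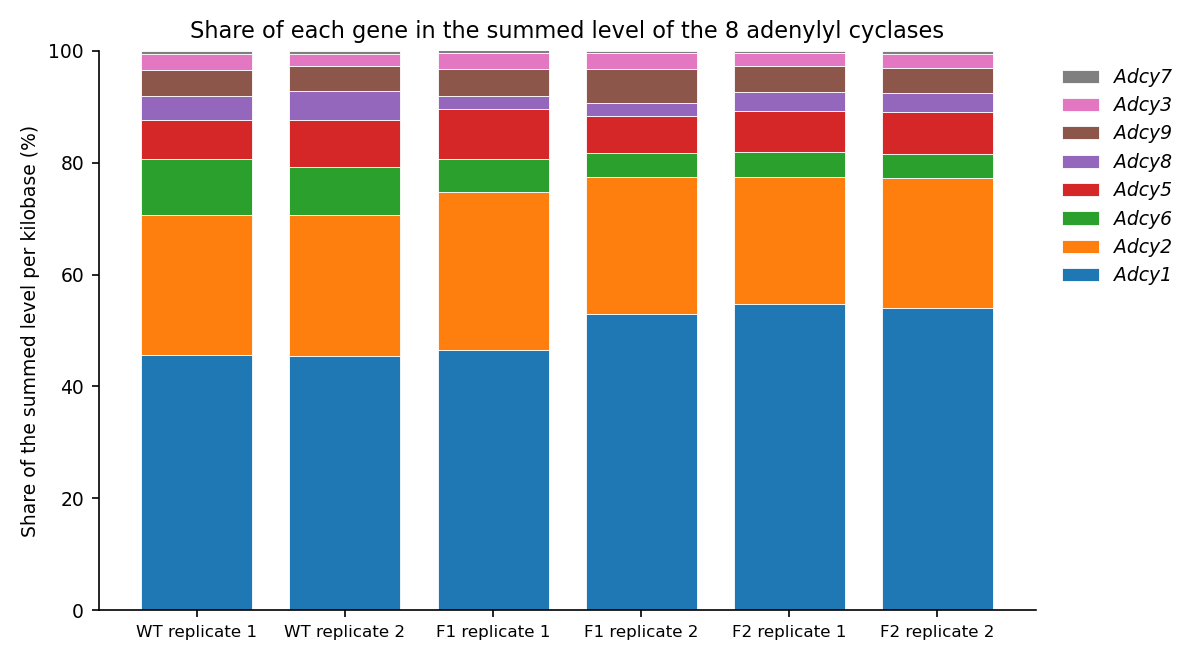
Share (%) of each adenylyl cyclase in the summed level per kilobase of exon of the 8 genes, 1 bar for each library. Adcy1 holds 45.5% to 45.7% in WT and 54.1% to 54.7% in F2, and the share of Adcy6 is smaller in all F1 and F2 libraries than in WT.

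Both remaining cyclases of the family were low. Adcy4, also stimulated by βγ subunits and known from vessels, had between 2.01 and 2.97 CPM in the 6 libraries and was not called (log2 fold change 0.04 ± 0.27 in F1 and -0.08 ± 0.28 in F2). Adcy10, the soluble cyclase that responds to bicarbonate, had 1.12 and 1.48 CPM in WT, 0.495 and 0.551 in F1, and 0.823 and 0.594 in F2. All F1 and F2 values lay below WT, on between 15 and 42 reads per library. The decrease was called in F1 (log2 fold change -1.30 ± 0.39, edgeR exact test, adjusted p = 0.00695) and not in F2 (-0.86 ± 0.38, edgeR adjusted p = 0.0893), and the difference between the generations was not called (0.43 ± 0.43, edgeR adjusted p = 0.959).

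The genes with the pattern most like that of Adcy6, the member called in both generations, were found by the Pearson correlation of log2 CPM over the 6 libraries among the 13678 genes whose mean count reached 50. They were Pigo, an enzyme of glycosylphosphatidylinositol anchor synthesis (r = 0.996), Dvl2, a transducer of Wnt signals (r = 0.995), and Piwil2, a PIWI protein of the germ line (r = 0.994). Pigo had 38.4 and 29.8 CPM in WT, 20.5 and 19.6 in F1, and 24 and 21.8 in F2. With 6 points such values are common: 468 genes had r above 0.95. Pigo, Dvl2 and Piwil2 share the higher level in WT replicate 1 than in WT replicate 2 and the low levels in F1 and F2.

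Upstream and downstream of the cyclases, 112 genes of the cAMP pathway were listed and 109 tested. In F1, 10 were called (6 higher, 4 lower), which is 9.17% beside the 12.3% of all tested genes. In F2, 11 were called (6 higher, 5 lower), 10.1% beside 12%. Neither share exceeds the background. Median log2 fold changes were 0.18 and 0.22, against 0.01 and 0 over all tested genes. By the quasi-likelihood test 6 pathway genes were called in F1 (Akap8, Akap13, Crtc2, Crtc3, Pde1a and Prkar2a) and 4 in F2 (Akap8, Akap13, Crtc2 and Prkar2a). The other calls against WT named below did not pass that test, which was not read for pathway genes in F2 against F1.

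Of the inputs to the cyclases, none of the 7 G protein α subunit genes was called in F1 or F2 by edgeR's exact test. In F1, 6 of them had an unadjusted p under 0.05, all higher, beside 32.6% of all tested genes in either direction, with Gnas, the stimulatory α subunit, closest to the threshold (log2 fold change 0.42 ± 0.13, edgeR adjusted p = 0.0117). In F2 there was 1, beside 32.4% of all tested genes: Gnai2 (0.35 ± 0.11, edgeR adjusted p = 0.0146). DESeq2 called Gnas in F1 and Gnai2 in F2, and the quasi-likelihood test called neither. Of 21 Gs-coupled receptors, Htr7, a serotonin receptor, was called higher in F1 (0.75 ± 0.20, edgeR adjusted p = 0.00215), with 0.50 ± 0.20 in F2 (edgeR adjusted p = 0.0641). Crhr1, the receptor of corticotropin-releasing hormone, was called lower in F2 (-0.80 ± 0.19, edgeR adjusted p = 0.00057), from 25.9 and 17.7 CPM in WT to 12.8 and 12.3. Its F1 value was -0.54 ± 0.19 (edgeR adjusted p = 0.0281). Of 29 tested Gi-coupled receptors, Grm3, a metabotropic glutamate receptor, rose in both generations, from 10.7 and 13.4 CPM in WT to 18.4 and 18.5 in F1 and 22.8 and 17 in F2 (edgeR adjusted p = 0.00918 and 0.00162). Chrm2, a muscarinic receptor, and S1pr1, a receptor of sphingosine 1-phosphate, were called higher in F2 (log2 fold change 0.79 ± 0.22 and 0.43 ± 0.12), with 0.62 ± 0.22 and 0.29 ± 0.12 in F1. Adora1, the adenosine A1 receptor, was called higher in F1 (0.48 ± 0.13), with 0.11 ± 0.13 in F2. None of these receptors was called between the generations.

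Among 16 phosphodiesterases, which break down cyclic nucleotides, Pde1a, a calcium-activated enzyme, was called higher in F1 (log2 fold change 0.77 ± 0.13, edgeR adjusted p = 1.94e-07). Its F2 value was 0.34 ± 0.13 (edgeR adjusted p = 0.0446). In F2 Pde7b was called higher (0.62 ± 0.18) and Pde7a, a related cAMP-specific enzyme, lower (-0.50 ± 0.14), with -0.03 ± 0.18 and -0.40 ± 0.14 in F1. Of 9 genes of PKA subunits and inhibitors, the regulatory subunit Prkar2a rose in both generations, from 22.7 and 18.7 CPM in WT to 31.7 and 42.2 in F1 and 39.3 and 35.3 in F2 (edgeR adjusted p = 2.07e-05 and 1.75e-05). Prkar1b, a neuronal regulatory subunit, was called higher in F1 (0.43 ± 0.13), with 0.22 ± 0.13 in F2. Of 10 tested PKA anchoring proteins, Akap8 and Akap13 fell in both. Akap8, a nuclear anchor, went from 157 and 127 CPM in WT to 77.4 and 63.6 in F1 and 72.3 and 70.5 in F2. Akap13 went from 105 and 91.9 to 58.6 and 42.4 and to 39.2 and 44.8. Their log2 fold changes were -1.01 ± 0.14 and -0.97 ± 0.15 in F1, and -0.99 ± 0.14 and -1.23 ± 0.16 in F2.

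Among 9 other effectors, Popdc3, of the Popeye family of cAMP-binding proteins, was the pathway gene called between the generations. It had 7.88 and 6.05 CPM in WT, 10.7 and 9.04 in F1, and 4.79 and 5.16 in F2. Of 8 genes of the CREB family and its coactivators, Crtc2, a coactivator released by cAMP and calcium signals, fell in both generations, from 47.1 and 37.5 CPM in WT to 23.1 and 21.4 in F1 and 24.1 and 22.7 in F2 (edgeR adjusted p = 7.53e-08 and 1.14e-06). Its relative Crtc3 fell in F1 (-0.57 ± 0.14, edgeR adjusted p = 0.000603), with -0.31 ± 0.14 in F2 (edgeR adjusted p = 0.0923).

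**Figure D4:**
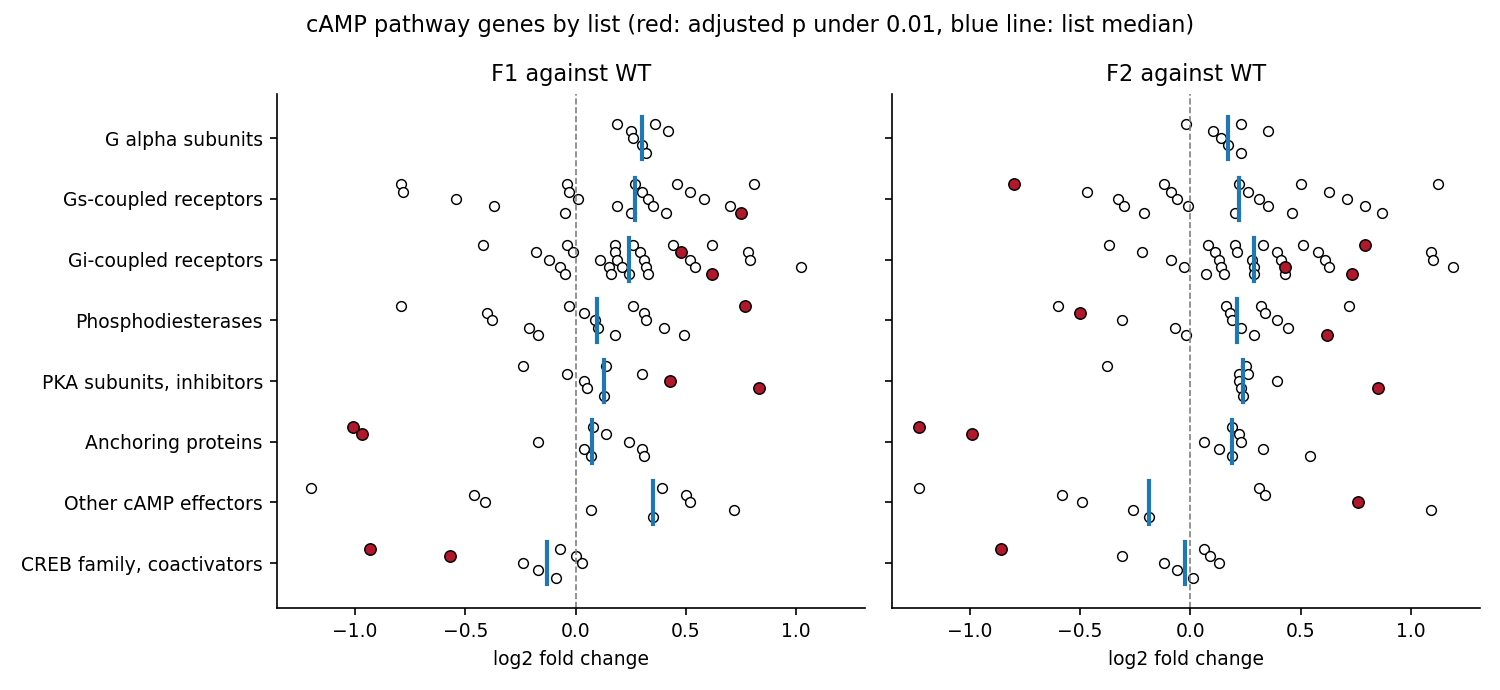
Log2 fold change (horizontal axis) of the 109 tested cAMP pathway genes in F1 and F2 against WT, 1 row for each list. Each circle is a gene, red where it passed an adjusted p of 0.01 in edgeR's exact test, and the blue line is the median of the list. Akap8, Akap13 and Crtc2 are the genes called lower in both generations, and no G protein α subunit is red.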

How the data were processed

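The granule cell layer was microdissected from frozen sections and sequenced as single-end reads of 50 bp with a kit that does not mark strand. The authors aligned the reads to mm9 with TopHat (the submitters' processing notes name TopHat2 2.0.2 and Bowtie 1.0.0) without searching for new junctions, and deposited raw counts per gene from HTSeq in intersection-strict mode. That mode drops reads that reach beyond exons or lie within several genes, and reads that aligned to several places were not counted. The annotation they used is not given in the sources used here, and the bisulfite libraries were not analysed here. The 5 summary rows of each table were left out of library sizes.

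Groups came from the labels. The counts of genes kept by filterByExpr were TMM-normalized and tested with the exact test of edgeR 4.0.16 (R 4.3.3), with tagwise dispersion over all 3 groups (common coefficient of variation 10.6%). Standard errors and 95% intervals follow from mean counts and dispersion by the delta method. Correlations used log2(CPM + 0.1). With 2 libraries a group the spread of a gene is largely borrowed from other genes, and counting error is small beside it except for genes of few reads such as Adcy7 and Adcy10. Replicates were not duplicates (chi-square per degree of freedom 17.5 in WT, 14.3 in F1, 17.3 in F2). Exon lengths, positions and overlaps came from GENCODE M1, promoters from RefSeq. The procedure was run on simulated counts drawn with the dispersions of the fit, with 200 genes changed 2-fold up or down. The exact test recovered 73.5% of them with 6 false calls. Such counts cannot check the spread of the real libraries, nor smaller changes. Alternatives were edgeR's quasi-likelihood test, its likelihood-ratio and quasi-likelihood tests with a replicate block, DESeq2 1.42.0, a dispersion estimated without the third group, size factors, upper-quartile or library-size scaling, no filter or one at a mean of 50 counts, calls at 0.05, and leaving out single libraries. Plots were made with matplotlib 3.10.9.

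The members, gene lists and tests were chosen with earlier results of these data known. Named were the 8 members, Adcy4, Adcy10, Htr1a, up to 3 called genes of each pathway list with the smallest summed rank of p in F1 and F2, the 3 genes most correlated with Adcy6, and cell type markers where a result needed them. Adora1, Popdc3, Gnas and Gnai2 were named after their values were seen. A gene under the rule is not reported here, although pathway counts include it.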

Additional observations from a re-analysis of the deposited data

Results flagged for a closer look

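Adcy8 is given here because its change in one generation differed from that in the other by a test of the difference itself. The log2 difference of F2 against F1 was 0.83 ± 0.16 SE (edgeR exact test, adjusted p = 0.000145), with 13.4 and 17.7 CPM in F1 and 28.3 and 26.9 in F2, so that both F2 libraries were higher than both F1 libraries. The range of the adjusted p over the alternatives was 2.77e-06 to 0.0468, and 13 of 17 called it. With 2 libraries in a group, it cannot be told which of them is outlying. Over the libraries left out 1 at a time, the log2 difference of Adcy8 was 0.64 to 1.04.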

How the results depend on the processing

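Of 408 member values under 17 alternatives, 366 kept their direction and their side of the threshold, 18 lost a call, 14 gained one and 10 changed sign. All 10 sign changes came from leaving out 1 library and concerned values that were not called. Over the libraries left out, the log2 fold change of Adcy7 was -0.41 to 0.16 in F1, and -0.11 to 0.22 in F2, where that of Adcy8 was -0.04 to 0.09. In F2 against F1 it ranged from -0.02 to 0.19 for Adcy2, -0.11 to 0.2 for Adcy3, -0.1 to 0.48 for Adcy7 and -0.33 to 0.45 for Adcy9.

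Leaving out each library gave 1 to 4 members called in F1, 1 to 5 in F2 and 0 to 2 in F2 against F1. Called genes ranged over 1011 to 2031 in F1, 754 to 2560 in F2 and 54 to 227 in F2 against F1, and called pathway genes over 5 to 10 in F1 and 5 to 15 in F2. A lone remaining library was assumed to vary like the other groups.

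The quasi-likelihood test called 2 members in F1, 0 in F2 and 0 in F2 against F1, where 6, 6 and 3 had an unadjusted p under 0.05 (33.3%, 33.2% and 9.01% of all tested genes did), and it called 1029, 997 and 2 genes in all, and 6 and 4 pathway genes. DESeq2 called 2, 4 and 1 members. With the 2 groups' own dispersion 5 members were called in F2. At 0.05 the counts were 5 members in F2, 3623, 3606 and 230 genes, and 27 and 26 pathway genes. Scaling moved the median log2 fold change of all genes by at most 0.02.

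The labels do not say what a replicate number marks. Deviations of libraries with the same number were not positively correlated (-0.0239 for WT and F1, -0.0837 for WT and F2, -0.186 for F1 and F2). These correlations cannot decide whether a number marks a shared litter or batch. With the replicate block the quasi-likelihood test called 0 members in F2 and 0 in F2 against F1, 848, 758 and 9 genes, and 5 and 4 pathway genes, and the likelihood-ratio test called 7 pathway genes in F2. With the F2 numbers crossed, a block added after seeing the data, 2, 4 and 1 members, 17 pathway genes in F2 and 233 genes in F2 against F1 were called. Except where fewer libraries entered the fit, the cause of these changes was not tested. The number of libraries, not depth, limited most members, and Adcy7 and Adcy10 were limited by their counts too.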
